A study of Mus musculus with 12 samples.

Results

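The 10 genes followed here move cholesterol out of liver cells, take it up, or sense it in mouse liver. They are the membrane exporters Abca1, Abcg1, Abcg5 and Abcg8, the HDL receptor Scarb1, the lysosomal exit proteins Npc1 and Npc2, the sterol sensing receptors Nr1h3 (LXR alpha) and Nr1h2 (LXR beta), and Mylip, a ubiquitin ligase that limits lipoprotein uptake. They were chosen by name, through the RefSeq transcript that each array probe carries, and make up 10 of 45607 measured genes and transcripts. All 10 were among the 26397 tested. The liver came from male mice aged 7 weeks at the start of dosing, either wild type or IAP knockout (Akp3-/-), a strain without the gene for an intestinal alkaline phosphatase. Each genotype received either a 5 g/L carboxymethylcellulose solution by mouth (vehicle) or the same solution with IIAEK, a pentapeptide of isoleucine, isoleucine, alanine, glutamate and lysine that the labels describe as cholesterol lowering, at 600 mg/kg per day. Dosing was once a day for 14 days, and liver was taken after 8 h of fasting from 3 mice in each of the 4 groups, so that fasting and carboxymethylcellulose were shared by all groups. The strain background of the mice and their housing are not given in the sources used here.

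Cholesterol leaves liver cells by separate doors. ABCA1 loads lipid-poor apolipoprotein A-I to start an HDL particle, ABCG1 adds cholesterol to HDL that has already formed, and ABCG5 and ABCG8 pair up as 1 transporter that secretes sterols into bile. SR-BI, the product of Scarb1, brings HDL cholesterol into the hepatocyte, and NPC2 hands cholesterol freed in the lysosome to NPC1 for export from that compartment. When sterols accumulate, oxysterols bind the LXR receptors, which then raise transcription of Abca1, Abcg1, Abcg5, Abcg8 and Mylip, so these genes are widely read as an LXR output.

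The sequences before the start sites of 4 members are shown because Abca1 and Mylip were the members whose groups did not overlap in wild-type liver, and because Abcg5 and Abcg8 share a stretch of DNA. They are from RefSeq on GRCm38.p6, whereas the arrays were designed on mm9, and 7 of the 10 genes had such a sequence. For Abca1 the 250 bases before the start site are at chr4:53159896-53160145 on the minus strand, and for Mylip at chr13:45389492-45389741 on the plus strand. Abcg5 (minus strand) and Abcg8 (plus strand) lie head to head, with 109 bases between their start sites at chr17:84683012-84683120, printed on the plus strand. Another annotated start of Abcg8, at base 84676302 of chromosome 17, lies inside the Abcg5 gene. The sequences are printed 5′ to 3′, with motif matches in capitals.
Abca1: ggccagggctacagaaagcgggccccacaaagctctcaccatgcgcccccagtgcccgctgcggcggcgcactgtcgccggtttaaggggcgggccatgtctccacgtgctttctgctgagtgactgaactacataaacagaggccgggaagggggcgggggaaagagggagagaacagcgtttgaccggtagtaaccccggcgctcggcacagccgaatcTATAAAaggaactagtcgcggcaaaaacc
Mylip: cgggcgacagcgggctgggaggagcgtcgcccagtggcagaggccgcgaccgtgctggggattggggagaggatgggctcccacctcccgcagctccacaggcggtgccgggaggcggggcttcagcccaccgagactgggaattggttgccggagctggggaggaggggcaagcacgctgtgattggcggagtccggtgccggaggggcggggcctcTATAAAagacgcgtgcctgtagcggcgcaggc
Abcg5-Abcg8: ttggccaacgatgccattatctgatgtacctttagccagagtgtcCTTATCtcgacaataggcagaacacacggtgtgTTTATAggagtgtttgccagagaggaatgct

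In Abca1 and Mylip the capitals mark a TATA box, TATAAA, at 29 to 24 and at 32 to 27 bases before the start. Searched on both strands of the 250 bases before each start, this motif was in 12.4% of 32851 windows, which belong to 27025 genes. Counted by gene, it was in 4 of the 7 members with a window: Abca1, Mylip, Abcg5 and Abcg8. The matches of Abcg5 and Abcg8 are the same site, counted under both genes. Because the percentage counts windows and the members are counted by gene, no excess can be read from these values. The shared stretch of Abcg5 and Abcg8 holds the same motif on its minus strand, as its second capitals. Its first capitals are a GATA motif, GATAAG on the minus strand, which was in 6.55% of all windows. Counted by gene, it was in 3 of the 7 members with a window: Abcg5 and Abcg8, again as the same site, and Npc2. No excess can be read from these values either. The motifs do not overlap each other. A match is a description of the letters only.

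Each probe's value is the log2 of its background-subtracted signal minus the 75th percentile of its array, so a difference of 1 is a doubling relative to the array. The 75th percentile lay between 314.6 and 529.4 signal units, and between 56.8% and 61.9% of probes were well above background. No spot was saturated, and all 14 probes of the 10 genes were above background on 12 of 12 arrays. Both probes of Akp3 were above background on 0 of 12 arrays, wild-type arrays included (log2 levels -7.47 to -6.36), so the targeted gene gives no check of the genotype labels in liver. A set of 4 vehicle arrays stood apart from the rest on the first principal component of all tested genes, which held 55.4% of the variance: wild-type vehicle mice 2 and 3 and knockout vehicle mice 1 and 3 scored 74.2 to 88.2, and the other 8 arrays scored -57.4 to -11.3. All 11 hepatocyte markers measured were above background on every array. Pancreas acinar cell transcripts were raised in wild-type vehicle mouse 1 (median deviation from the 12-array mean 2.90), and small intestine transcripts in wild-type vehicle mouse 2 (2.62). Smaller medians above the mean were 0.37 for pancreas in wild-type IIAEK mouse 1, and for small intestine 0.90 and 0.76 in wild-type vehicle mice 1 and 3. Knockout vehicle mouse 3 had 0.15 for small intestine. Array 1 of every group was on slide 1 and arrays 2 and 3 on slide 2.

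No member passed an adjusted p of 0.05 (limma, Benjamini-Hochberg over all genes tested) for IIAEK against vehicle in either genotype, for knockout against wild type under either treatment, or for the difference between both IIAEK effects. The background was as low: in wild-type liver 0.00379% of tested genes passed for IIAEK, and 0% passed in knockout liver. At an unadjusted p under 0.05, 2 members passed for IIAEK in wild-type liver, where 12.6% of all genes did, and 0 passed in knockout liver, where 6.29% did. For the difference between both effects 0 members passed, where 1.56% of all genes did and 0% passed the adjusted threshold. Both were lower with IIAEK: Abca1, and Mylip. The widest intervals belonged to Abcg1 and Abcg8, and the narrowest to Nr1h3.

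**Figure D1:**
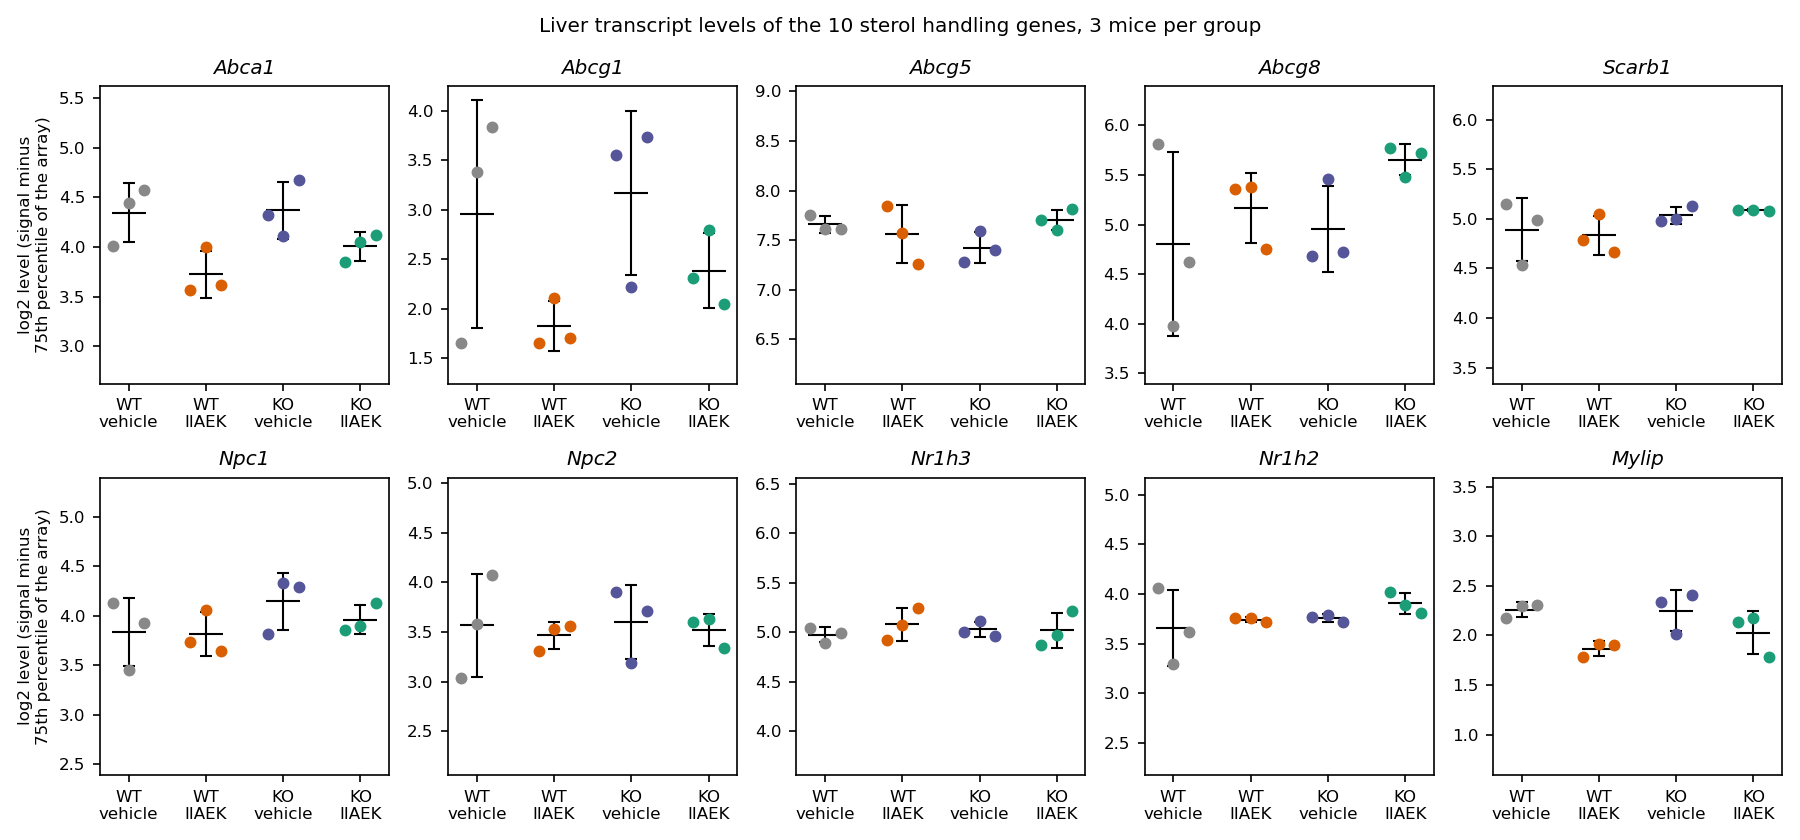
Log2 level (signal minus the 75th percentile of the array, vertical axis) of each of the 10 genes in the 4 groups; each point is 1 mouse, in the order mouse 1, 2 and 3, and the bars show the mean and SD of 3 mice. Every panel spans 3 log2 units, so the spread of Abcg1 and Abcg8 in the vehicle groups can be seen beside the near constant Nr1h3.

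Abca1, the exporter that starts HDL formation, was lower in all 3 IIAEK mice than in all 3 vehicle mice of the wild type. Its log2 levels in wild-type vehicle mice were 4.01, 4.44 and 4.58, and in wild-type IIAEK mice 3.57, 3.996 and 3.61. The groups did not overlap, although only a small gap separated vehicle mouse 1 from IIAEK mouse 2. The difference was -0.62 (SE 0.21, 95% confidence interval -1.08 to -0.16), or 1.54-fold lower, with an adjusted p of 0.393 by limma. On slide 1 the difference was -0.44 and on slide 2 it was -0.71. A second, much dimmer Abca1 probe gave -0.73 and followed the first across the 12 arrays (r = 0.94, a description).

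In knockout liver the Abca1 levels were 4.32, 4.11 and 4.68 with vehicle and 3.84, 4.05 and 4.12 with IIAEK. Here the groups overlapped, since vehicle mouse 2 lay within the IIAEK range. The difference was -0.36 (SE 0.21, interval -0.82 to 0.09; limma adjusted p = 0.663), with the sign of the wild type, and the difference between both IIAEK effects, 0.26, had an interval of -0.39 to 0.90. By group mean the order from low to high was wild-type IIAEK (3.73 ± 0.24 SD, n = 3), knockout IIAEK (4.01 ± 0.14), wild-type vehicle (4.34 ± 0.30) and knockout vehicle (4.37 ± 0.29). Each pair of neighbours in that order overlapped.

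Abcg1, which lipidates mature HDL and is abundant in macrophages, had the largest spread of the members, 2.18 log2 units over the 12 arrays. Wild-type vehicle mice had log2 levels of 1.66, 3.38 and 3.84, and wild-type IIAEK mice 1.66, 2.11 and 1.71. Vehicle mouse 1 was at the level of the IIAEK mice, and vehicle mice 2 and 3 were far above them. The fitted difference was -1.13 (SE 0.54, interval -2.32 to 0.05; limma adjusted p = 0.397), made up of 0.0022 on slide 1 and -1.70 on slide 2.

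In knockout liver the Abcg1 levels were 3.56, 2.22 and 3.74 with vehicle and 2.31, 2.79 and 2.05 with IIAEK. Vehicle mice 1 and 3 were high and vehicle mouse 2 lay inside the IIAEK range. The difference was -0.79 (interval -1.97 to 0.40; limma adjusted p = 0.663). The order of the group means was that of Abca1: 1.83 ± 0.25 SD in wild-type IIAEK, 2.38 ± 0.38 in knockout IIAEK, 2.96 ± 1.15 in wild-type vehicle and 3.17 ± 0.83 in knockout vehicle (n = 3 each). Each pair of neighbours overlapped.

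Abcg5, the first partner of the biliary sterol transporter, stayed within 0.58 log2 units over all arrays. It was at 7.75, 7.61 and 7.61 in wild-type vehicle mice and 7.85, 7.57 and 7.26 in wild-type IIAEK mice, a difference of -0.10 (interval -0.47 to 0.27). In knockout mice it was at 7.28, 7.60 and 7.40 with vehicle and 7.71, 7.61 and 7.81 with IIAEK. All 3 IIAEK mice of the knockout were above all 3 vehicle mice, by 0.28 on average (interval -0.09 to 0.65; limma adjusted p = 0.663), while the wild-type groups overlapped. The difference between both effects, 0.38 (interval -0.14 to 0.90), gave an adjusted p of 0.9999 by limma.

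Abcg8, the second partner, ran from 3.98 to 5.81. Its levels were 5.81, 3.98 and 4.62 in wild-type vehicle mice and 5.35, 5.38 and 4.76 in wild-type IIAEK mice. Vehicle mouse 1 was above every IIAEK mouse and vehicle mice 2 and 3 were below them. The difference of 0.36 (interval -0.53 to 1.24) was accordingly -0.46 on slide 1 and 0.77 on slide 2.

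In knockout liver Abcg8 was at 4.69, 5.46 and 4.72 with vehicle and 5.77, 5.48 and 5.72 with IIAEK. The groups did not overlap, though vehicle mouse 2 was close to IIAEK mouse 2. The difference was 0.70 (SE 0.40, interval -0.19 to 1.59; limma adjusted p = 0.663). The annotated second start of Abcg8 inside Abcg5 cannot be resolved by the single probe of each gene.

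Scarb1, the HDL receptor, was nearly level within each treatment pair. Wild-type vehicle mice had 5.15, 4.53 and 4.99 and wild-type IIAEK mice 4.79, 5.05 and 4.67. Knockout mice had 4.98, 5.00 and 5.13 with vehicle and 5.09, 5.09 and 5.08 with IIAEK. The IIAEK differences were -0.06 (interval -0.44 to 0.33) in wild type and 0.05 (interval -0.33 to 0.43) in knockout, so a change of more than about 0.44 log2 units in either direction lay outside both intervals.

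Npc1, which carries cholesterol through the lysosomal membrane, was at 4.13, 3.46 and 3.92 in wild-type vehicle mice and 3.74, 4.06 and 3.64 in wild-type IIAEK mice. In knockout mice it was at 3.81, 4.33 and 4.29 with vehicle and 3.86, 3.89 and 4.13 with IIAEK. Both pairs of groups overlapped, with differences of -0.02 (interval -0.49 to 0.45) and -0.19 (interval -0.66 to 0.28). Npc2, the soluble lysosomal sterol carrier, was at 3.04, 3.58 and 4.08 in wild-type vehicle mice and 3.31, 3.53 and 3.56 in wild-type IIAEK mice. Its levels in knockout mice were 3.90, 3.18 and 3.71 with vehicle and 3.60, 3.63 and 3.34 with IIAEK. The vehicle mice spread around the IIAEK mice in both genotypes, and the differences were -0.10 (interval -0.68 to 0.48) and -0.08 (interval -0.65 to 0.50).

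Nr1h3, the LXR form that predominates in liver, spread least of the members. It was at 5.04, 4.89 and 4.99 in wild-type vehicle mice, 4.92, 5.07 and 5.25 in wild-type IIAEK mice, 5.00, 5.12 and 4.97 in knockout vehicle mice and 4.87, 4.97 and 5.22 in knockout IIAEK mice. All groups overlapped, and the whole range was 0.38 log2 units. The IIAEK differences were 0.10 (interval -0.21 to 0.42) in wild type and -0.01 (interval -0.33 to 0.31) in knockout.

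Nr1h2, the LXR form found in most tissues, was at 4.06, 3.29 and 3.62 in wild-type vehicle mice and at 3.76, 3.76 and 3.71 in wild-type IIAEK mice. Its difference there was 0.09 (interval -0.31 to 0.48). Knockout mice had 3.77, 3.79 and 3.71 with vehicle and 4.02, 3.88 and 3.81 with IIAEK. These last groups did not overlap, with IIAEK higher by 0.15 (interval -0.25 to 0.54; limma adjusted p = 0.752).

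Mylip, the LXR target that limits lipoprotein uptake, was the tightest of the members that separated in wild-type liver. Its levels were 2.17, 2.30 and 2.31 with vehicle and 1.79, 1.92 and 1.90 with IIAEK. All 3 IIAEK mice were below all 3 vehicle mice, including vehicle mouse 1. The difference was -0.39 (SE 0.16, interval -0.74 to -0.05), with an adjusted p of 0.393 by limma, and it was -0.39 on slide 1 and -0.40 on slide 2. In knockout mice the levels were 2.33, 2.01 and 2.41 with vehicle and 2.13, 2.18 and 1.78 with IIAEK, which overlap, with a difference of -0.22 (interval -0.57 to 0.12; limma adjusted p = 0.665).

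**Figure D2:**
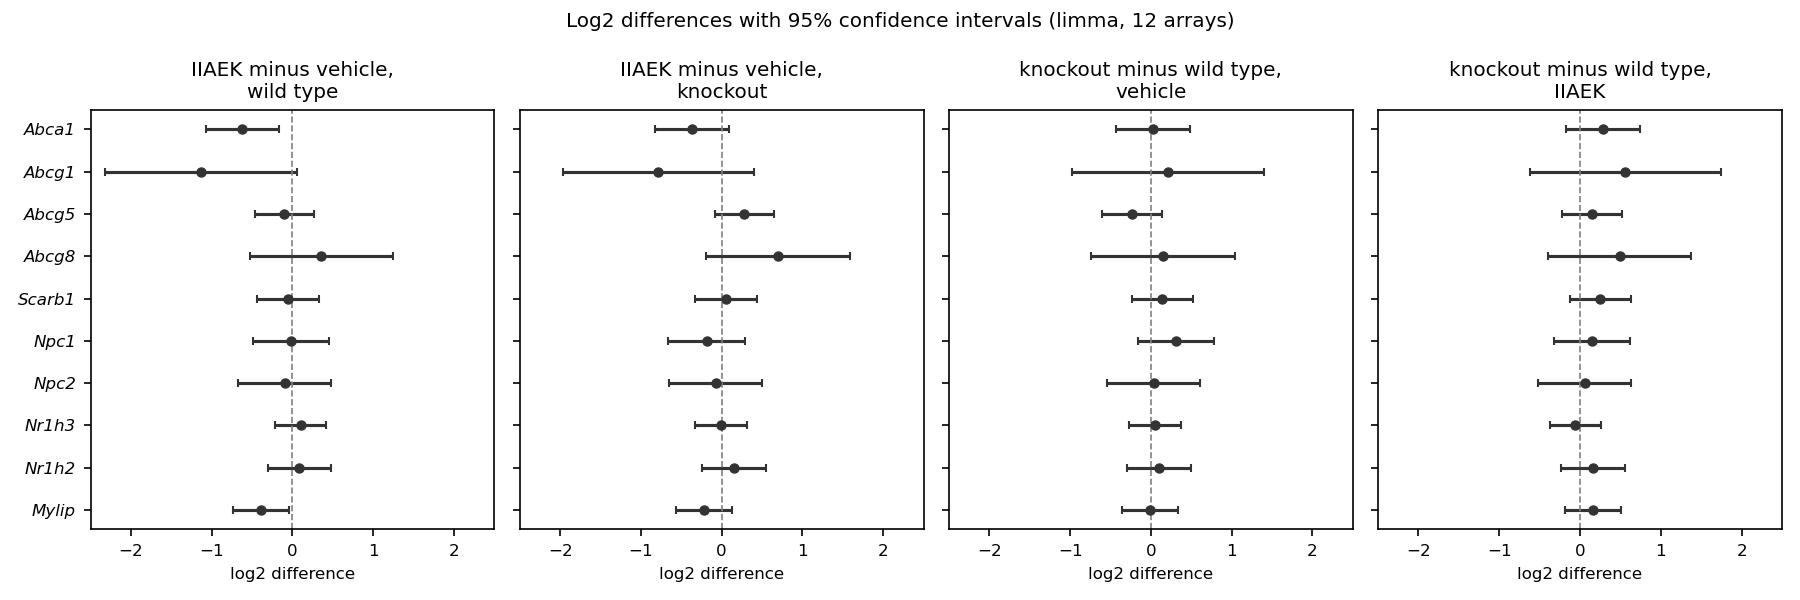
Log2 difference (horizontal axis) with its 95% confidence interval from limma for each of the 10 genes in 4 comparisons: IIAEK minus vehicle in wild type and in knockout, and knockout minus wild type under vehicle and under IIAEK. The intervals of Abca1 and Mylip in wild type lie below 0, and every other interval includes 0.

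Of the 10 members, 2 did not overlap between wild-type vehicle and IIAEK mice, Abca1 and Mylip, both lower with IIAEK. Of all tested genes 12.9% did not overlap (5.71% lower with IIAEK and 7.24% higher). In knockout liver 3 of 10 did not overlap, Abcg5, Abcg8 and Nr1h2, all higher with IIAEK, against 15.1% of all genes (8.82% higher). The members' median difference was -0.08 in wild type and -0.04 in knockout, and the median of all genes tested was 0.05 and 0.04.

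With both genotypes averaged, which uses the same 12 arrays again, Abca1 was lower with IIAEK by 0.49 (log2 difference -0.49, SE 0.15, adjusted p = 0.181 by limma). The averaged log2 difference was -0.96 for Abcg1 (SE 0.38, adjusted p = 0.191), -0.31 for Mylip (SE 0.11, adjusted p = 0.184) and 0.53 for Abcg8 (SE 0.28, adjusted p = 0.279) by limma. No member passed, and 0% of all genes did. At an unadjusted p under 0.05, 3 members passed, Abca1, Abcg1 and Mylip, where 22.9% of all genes did.

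Knockout and wild type were set side by side within each treatment, with the same arrays as above. Under vehicle, Abcg5 was lower in all 3 knockout mice than in all 3 wild-type mice, by a log2 difference of -0.23 (interval -0.60 to 0.13; limma adjusted p = 0.751). It was the only 1 of 10 members whose groups did not overlap there, where 8.44% of all genes did not (5.3% lower). Npc1 had the largest other value, 0.31 (interval -0.16 to 0.78; limma adjusted p = 0.746). No member passed, and 0.00379% of all genes did.

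Under IIAEK, 3 of 10 members did not overlap between genotypes, all higher in the knockout, where 27.7% of all genes did not overlap (13% higher). They were Abcg8 (0.49, interval -0.40 to 1.38), Scarb1 (0.25, interval -0.13 to 0.64) and Nr1h2 (0.16, interval -0.23 to 0.56). A second, much dimmer Nr1h2 probe gave -5.9e-05 and followed the first less closely (r = 0.56, a description). For Scarb1 a second, dimmer probe gave 0.28. Abca1 differed by 0.28 (interval -0.18 to 0.74). No member passed by limma (smallest adjusted p 0.672), and 0.00758% of all genes did. The unadjusted p under 0.05 was reached by 0 members in both genotype comparisons, where 6.64% and 7.84% of all genes reached it.

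The arrays that stood apart were among those with the extreme member values. In the 4 vehicle arrays named above, Abcg1 lay between 3.38 and 3.84, and in the other 8 arrays between 1.66 and 2.79. Abca1 lay between 4.32 and 4.68 in those 4 and between 3.57 and 4.12 in the 8, and Mylip between 2.30 and 2.41 against 1.78 and 2.18. Abcg8 went the other way, from 3.98 to 4.72 in the 4 and from 4.76 to 5.81 in the 8. These 4 of the 10 members did not overlap between the 2 sets of arrays, and 23.1% of all genes did not; the sets were drawn from all genes, members included, so this is a description with no test. The 6 members Abcg5, Scarb1, Npc1, Npc2, Nr1h3 and Nr1h2 overlapped.

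Some markers of other liver cells followed the same split. By median deviation, the Kupffer cell, bile duct and stellate cell lists did not overlap between the 2 sets of arrays. The other lists overlapped by that measure. The 18 Kupffer cell and macrophage markers, all above background on 12 of 12 arrays, had a median deviation from the 12-array mean of 0.58 to 0.78 in the 4 arrays and -0.86 to 0.21 in the other 8. Their summed signal, on the log2 scale, was 8.40 to 8.67 in the 4 and 6.98 to 7.86 in the 8. By group this sum ran from 7.41 to 8.67 in wild-type vehicle, 6.98 to 7.86 in wild-type IIAEK, 7.43 to 8.44 in knockout vehicle and 7.12 to 7.70 in knockout IIAEK mice. Taken singly, the 18 markers were not alike. Adgre1, Clec4f, Csf1r, Vsig4, Timd4, Folr2, Itgam and Cd163 overlapped between the 2 sets of arrays, and the rest of that list did not. Clec4f, for example, was 4.96 to 5.18 in the 4 arrays and 5.12 in wild-type IIAEK mouse 3. Bile duct markers deviated by 0.59 to 1.07 in the 4 arrays and -0.75 to -0.24 in the 8, with 7 of 11 above background on all arrays and 2 of 11 on none. Stellate cell and fibroblast markers, 13 of 13 above background throughout, deviated by 0.44 to 0.67 and by -0.62 to 0.17. Median deviations overlapped for hepatocyte markers (-0.46 to -0.07 in the 4 and -0.11 to 0.44 in the 8) and for liver endothelial cell markers (-0.55 to 0.09 and -0.09 to 0.21). They also overlapped for T, NK and B cell markers (-0.23 to 0.66 and -0.63 to 0.58) and for red blood cell markers (0.47 to 1.60 and -1.22 to 1.91). By summed signal, hepatocyte markers did not overlap (11.97 to 12.29 in the 4 and 12.34 to 12.93 in the 8). Nor did liver endothelial cell (6.05 to 6.27 and 6.44 to 6.61) or T, NK and B cell markers (4.81 to 5.20 and 5.33 to 6.34). All of these sums were lower in the 4 arrays, while the red blood cell sums overlapped. A sum follows its brightest markers. Cd4, by far the brightest T, NK and B cell marker, was lower in the 4 arrays without overlap, whereas Klrb1c was higher without overlap. Clec4g, the brightest liver endothelial cell marker, was lower without overlap, whereas Lyve1 was higher without overlap. Neither of these lists therefore moved as a whole. The part of these cells in the levels of Abca1, Abcg1, Mylip and Abcg8 was not tested, and in whole liver fewer cells of a type and less RNA per cell cannot be told apart.

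With those 4 arrays left out, which leaves 1 vehicle mouse per genotype, the IIAEK difference of Abcg1 was 0.17 in wild type and 0.17 in knockout, and that of Abcg8 was -0.65 and 0.19. The difference of Abca1 was -0.28 and -0.10, and that of Mylip -0.30 and 0.02. The lone vehicle mouse is taken to vary like the other groups in that fit, and no member passed in it.

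**Figure D3:**
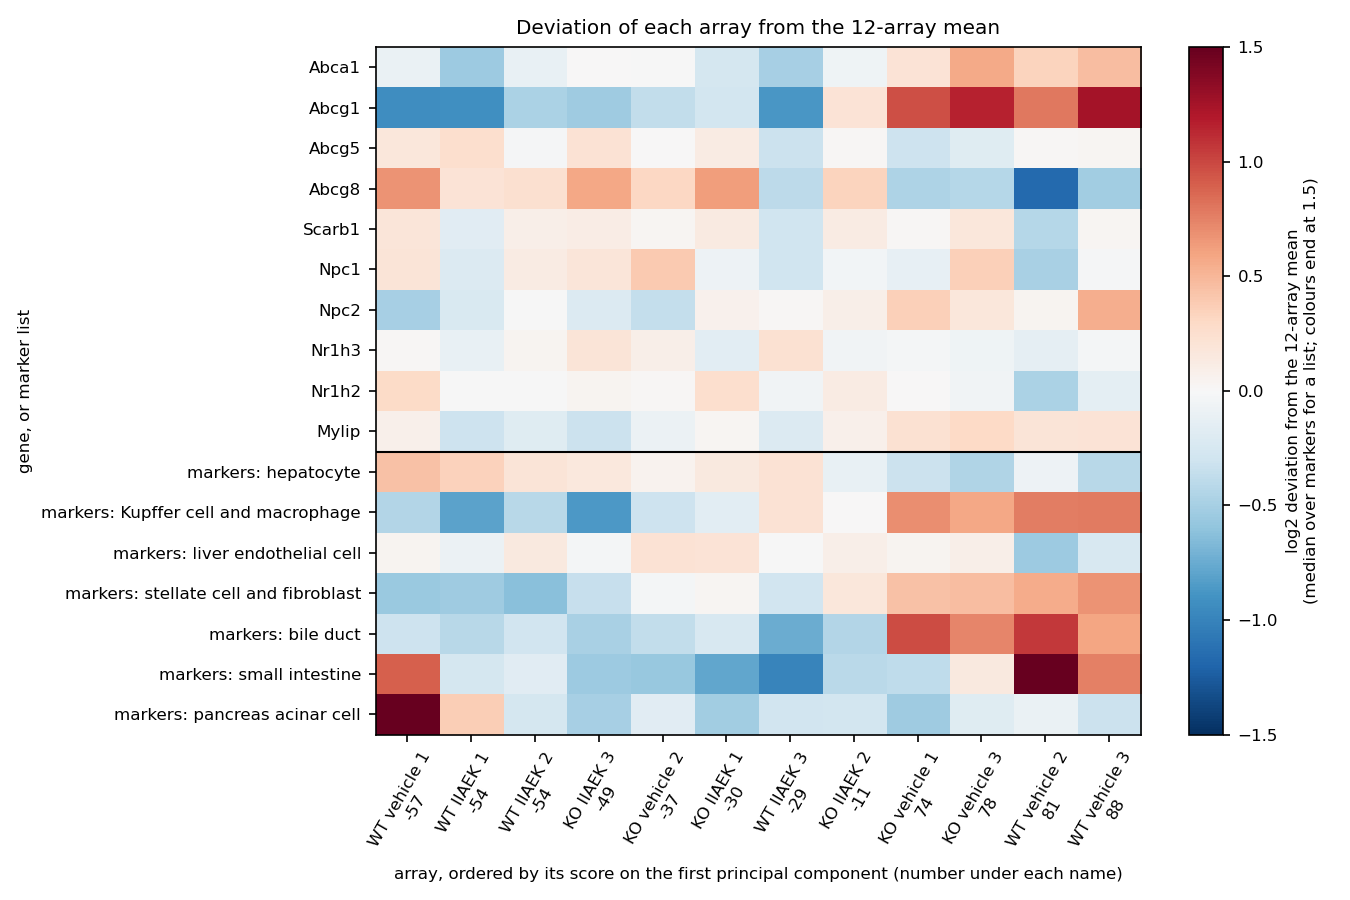
Log2 deviation from the 12-array mean of the 10 genes and of 7 marker lists (median over the markers) on each array, ordered along the horizontal axis by the score on the first principal component, printed under each name; red is above and blue below the mean, and colours end at 1.5. The 4 vehicle arrays at the right are high in Abcg1, Abca1, Mylip, Kupffer cell and bile duct markers and low in Abcg8.

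Leaving out single mice changed the calls. Without wild-type vehicle mouse 1, which was highest in pancreas transcripts, the IIAEK difference in wild type was -0.79 for Abca1 (limma adjusted p = 0.0360) and -1.78 for Abcg1 (adjusted p = 0.0311), and both passed. With that mouse out, 14.9% of all genes passed, so 2 of 10 members stood beside a raised background. It was also the only wild-type vehicle array outside the 4 that stood apart. The vehicle group left in that fit, wild-type vehicle mice 2 and 3, therefore held only arrays that stood apart. Over all alternatives tried, the adjusted p of Abca1 ran from 0.0360 to 0.736 and that of Abcg1 from 0.0311 to 0.896. Averaged over genotype without wild-type vehicle mouse 1, Abca1 (-0.57, limma adjusted p = 0.0187), Abcg1 (-1.28, adjusted p = 0.0152) and Abcg8 (0.78, adjusted p = 0.0224) passed, where 24.9% of all genes did. Without knockout vehicle mouse 2, averaged Abca1 passed (-0.56, limma adjusted p = 0.0471), where 9.88% of all genes did. That mouse was likewise the only knockout vehicle array outside the 4 that stood apart. With array weights Abca1, Abcg1, Abcg8 and Mylip passed in the averaged comparison, where 30.6% of all genes did. Without wild-type vehicle mice 1 and 2, the arrays highest in pancreas and in intestine transcripts, Abcg1 alone of the members passed there, where 8.33% of all genes did. The only wild-type vehicle mouse left in that fit, mouse 3, was among the 4 that stood apart. Its small intestine transcripts were also above the mean (median deviation 0.76). That lone mouse is taken to vary like the other groups. The averaged adjusted p ran from 0.00878 to 0.960 for Abca1, from 0.00758 to 0.994 for Abcg1 and from 0.0224 to 0.963 for Abcg8 over the alternatives. In knockout liver, leaving out 1 mouse at a time moved the IIAEK difference of Abca1 between -0.49 (without vehicle mouse 2) and -0.21 (without vehicle mouse 3), that of Abcg1 between -1.26 and -0.50 (the same mice), and that of Mylip between -0.34 (without vehicle mouse 2) and -0.096 (without IIAEK mouse 3). In wild type the difference of Abcg1 was -0.69 without vehicle mouse 3. The Abca1 difference stayed below 0 under every alternative tried in both genotypes, and that of Mylip did so in wild type.

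**Figure D4:**
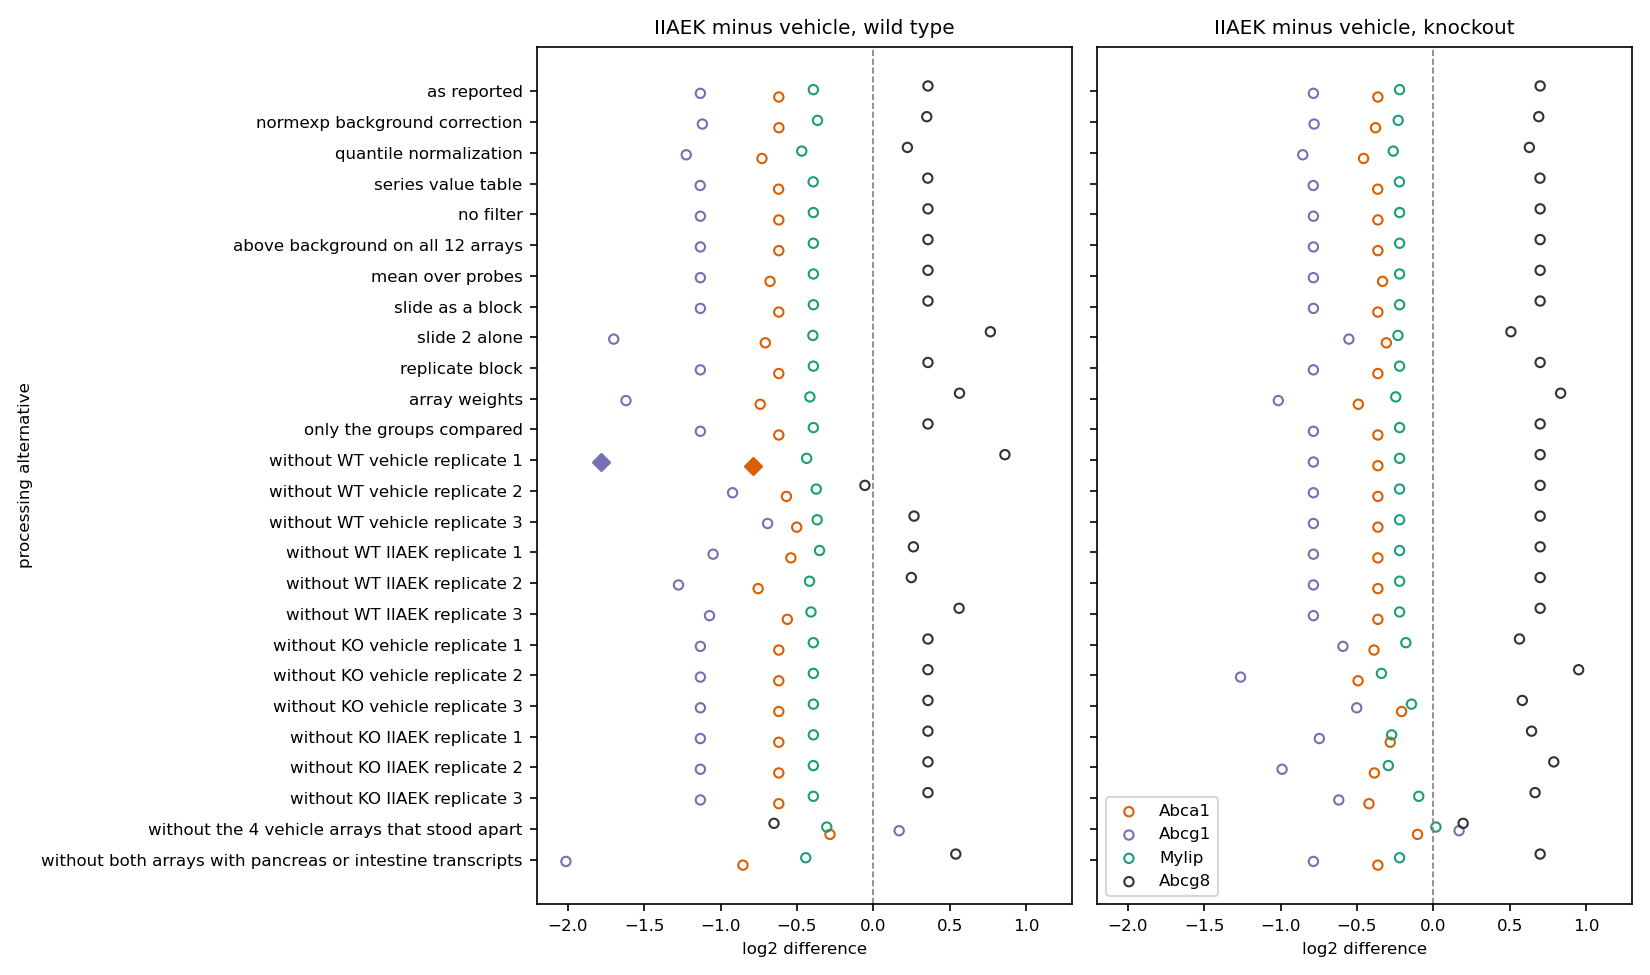
Log2 difference of IIAEK minus vehicle (horizontal axis) for Abca1, Abcg1, Mylip and Abcg8 under each processing alternative (rows) in wild type and in knockout; filled diamonds passed an adjusted p of 0.05 and open circles did not. Abca1 and Abcg1 passed in wild type without vehicle mouse 1, which leaves vehicle mice 2 and 3, both among the 4 vehicle arrays that stood apart. Leaving out those 4 vehicle arrays brought Abcg1 to 0.17.

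Because the arrays fall into 2 sets, correlations between members were taken only over the 8 arrays outside the 4, for 3 pairs. These 8 arrays mix all 4 groups and group means were not removed, so r and its p include differences between groups. Abcg5 and Abcg8, the transporter partners, had r = 0.81 (exact permutation p = 0.0260, adjusted 0.0781 over the 3 pairs) and rho = 0.43 (exact p = 0.299, adjusted 0.642), n = 8. Without the 2 mice farthest from the median of Abcg5, r was 0.90 (exact p = 0.0569, n = 6). Abca1 and Abcg1 had r = 0.54 (exact p = 0.172, adjusted 0.258) and rho = 0.33 (exact p = 0.428, adjusted 0.642), and r = -0.03 without the 2 farthest mice. Abca1 and Mylip had r = 0.34 (exact p = 0.398, adjusted 0.398) and rho = 0.14 (exact p = 0.752, adjusted 0.752), and r = -0.49 without them. None of the 3 passed.

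The genes whose levels were most like a member's over the 12 arrays were named by the highest Pearson r among all tested genes, as a description of arrays that share the split above. For Abcg1 they were Scd2, a fatty acid desaturase (r = 0.99), Spats2l (0.99) and Plp2 (0.99). Abca1 was nearest to Crim1 (0.98) and Dpysl3 (0.97), Mylip to Olfml2b (0.96) and Nedd9 (0.95), and Abcg8 to Mcoln1, a lysosomal cation channel (0.99), and Rhbdd3 (0.98). Scarb1 was nearest to Gsk3b (0.96), Npc1 to Arhgef10 (0.92), and Nr1h2 to Prcc (0.98). Npc2 was nearest to Hexa, another lysosomal protein gene (0.92). The nearest genes were less close for Abcg5 (Kalrn, 0.90) and for Nr1h3 (Kansl1, 0.84).

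Lists of genes around the members are described by counts, as 7 groups. For IIAEK, no gene of any of the 7 lists passed in either genotype by limma. Among 20 other LXR targets, 10 had higher and 10 lower means with IIAEK in wild type (median 0.0013), and 12 and 8 in knockout (median 0.09), where the median of all genes was 0.05 and 0.04. Lpl, the lipase that frees fatty acids from lipoproteins and an LXR target in macrophages, had a difference of -1.88 (SE 0.71, adjusted p = 0.393) in wild type and -1.66 (adjusted p = 0.663) in knockout by limma. Srebf1, the lipogenic regulator that LXR raises in hepatocytes, differed by 0.83 (SE 0.37, adjusted p = 0.663 by limma) in knockout. Cyp7a1, which opens the classical route from cholesterol to bile acids and is an LXR target in mouse, was above background in 3 of 3 wild-type vehicle mice and 1 of 3 wild-type IIAEK mice, so the size of its difference was not measured.

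Among the LXR partners and cofactors, 14 of 17 had higher means with IIAEK in wild type (median 0.14) and 12 of 17 in knockout (median 0.12). The smallest p belonged in wild type to Ncor1, a corepressor of unliganded LXR (0.67, limma adjusted p = 0.393), and to Rxrg, a heterodimer partner (0.66, adjusted p = 0.410). In knockout they belonged to Rxrg (0.84) and to Prmt3 (-0.41), both with a limma adjusted p of 0.663. Of 19 tested genes of lipoprotein uptake, 9 were higher and 10 lower in wild type (median -0.01), and 14 and 5 in knockout (median 0.07). Scarb2, a lysosomal membrane protein related to SR-BI, differed by 0.39 and Lrpap1, a chaperone of lipoprotein receptors, by 0.41 in wild type.

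Among 26 tested genes of intracellular sterol transport, 17 were higher in wild type (median 0.20) and 20 in knockout (median 0.07). Ces1d, a liver carboxylesterase, differed by 2.72 (SE 0.67, adjusted p = 0.393) in wild type, and Ces1f, another, by 3.13 (SE 1.49, adjusted p = 0.663) in knockout by limma. For HDL assembly and remodelling, 13 of 21 were higher in wild type (median 0.20) and 17 of 21 in knockout (median 0.27), with Pon3, an HDL-borne paraoxonase, at 0.51 in wild type and Abca5 at -0.92 in knockout.

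Of 14 genes of oxysterol metabolism, which make or remove the ligands of LXR, 8 were higher in each genotype (medians 0.31 and 0.38). Ch25h, which makes 25-hydroxycholesterol, was above background in 3 of 3 vehicle and 2 of 3 IIAEK mice of the wild type, and differed by -1.92 (SE 0.85, adjusted p = 0.663 by limma) in knockout. In the SREBP2 pathway, which makes cholesterol when sterols are scarce, 18 of 21 were higher in each genotype (medians 0.58 and 0.38), led in wild type by Hmgcs1 (1.62, SE 0.45, adjusted p = 0.393) and Insig1 (1.07, SE 0.32, adjusted p = 0.393) by limma. Sc5d and Fdft1 differed by 0.66 and 0.82 in knockout.

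Between genotypes no gene of these lists passed either. Of the 20 LXR targets, 14 were higher in the knockout under vehicle (median 0.15) and 14 under IIAEK (median 0.18), where the median of all genes was -0.05 and -0.02. Fasn and Acaca, both of fatty acid synthesis, had the smallest p under vehicle, at 0.91 and 0.68. Mylip overlapped between genotypes under both treatments.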

How the data were processed

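Total RNA of 12 livers was labelled with Cy3 and hybridised to 1-colour Agilent arrays, 1 mouse per array. The deposited scanner files hold intensities: per the file headers, Agilent Feature Extraction 10.7.3.1 subtracted the background from each spot, and the array design refers to mm9. The deposited series table holds log2 values. It matched the scanner values (log2 signal minus the 75th percentile, centred on each probe's median over arrays) with r of 0.999985 or more, so its scale and centring are known. Its column medians were 0.172, -0.0389 and -0.154 in wild-type vehicle mice 1 to 3, 0.155, 0.0672 and 0.0714 in wild-type IIAEK, -0.128, -0.0517 and -0.110 in knockout vehicle, and 0.0147, -0.0485 and 0.0530 in knockout IIAEK.

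Control spots and non-uniform spots were left out, spots of a probe were averaged, and log2 signal minus the 75th percentile of the array was taken for 56588 probes, of which 32978 were named through RefSeq (22902 symbols). The brightest probe stood for a gene. Genes above background on every array of at least 1 group were fitted in limma 3.58.1 (R 4.3.3) with 1 mean per group over all 12 arrays (8 residual degrees of freedom), two-sided, Benjamini-Hochberg over all 26397, threshold 0.05. The script was tested on simulated data. Correlations used exact permutation, computed with numpy 2.4.6, with scipy 1.17.1 for ranks and the adjustment. Alternatives were normexp background correction (offset 50), quantile normalization, the series table, other filters, the mean over probes, slide and replicate blocks, array weights, smaller fits and leaving out each mouse. All members are named. From each list, genes past the threshold or else the 2 with the smallest p are named. A few of these genes are not reported here. The members and lists were chosen with earlier results of these data known. The IIAEK labels give the dosing as 14 days in most fields, which was used; 1 field differs. With 3 mice per group, the number of arrays limits the precision.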

Additional observations from a re-analysis of the deposited data

How the results depend on the processing

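Over 25 alternatives, 33 log2 differences of members gave 818 values. Of these, 772 kept their direction and their side of the threshold, 35 had the other sign and 11 passed where the reported value did not. The cause was not tested. Many of the 772 could not change direction. The slide and replicate blocks, the other filters and the fits of only the groups compared leave each difference as it was. So does leaving out a mouse of a group outside the comparison, and the series table holds the same data. The count is therefore no measure of robustness. The count of members that passed was 0 for IIAEK in knockout, for both genotype comparisons, for the averaged genotype and for the difference between both effects under every alternative. It was 4 with array weights for IIAEK averaged over genotype. Leaving out 1 mouse at a time gave 0 to 3 there and 0 to 2 in wild type. With array weights the averaged differences were -0.62 for Abca1, -1.32 for Abcg1, 0.70 for Abcg8 and -0.33 for Mylip, and 8080 genes passed (30.6%). Without both wild-type vehicle arrays highest in pancreas or intestine transcripts, which leaves 1 wild-type vehicle mouse, Abcg1 was -1.40.

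Signs differed as follows. Quantile normalization gave -0.047 for Nr1h3 and -0.025 for Nr1h2 in wild type and -0.014 for Scarb1 in knockout. Slide 2 alone gave 0.094 for Scarb1 and 0.16 for Npc1 in wild type, and 0.034 for Npc2 and 0.052 for Nr1h3 in knockout. Array weights gave 0.0068 for Npc1 in wild type. Without the 4 vehicle arrays, chosen after seeing the data, IIAEK in wild type gave 0.17 for Abcg1, -0.65 for Abcg8, 0.43 for Npc2 and -0.32 for Nr1h2, and IIAEK in knockout gave 0.17 for Abcg1, 0.34 for Npc2 and 0.017 for Mylip. The difference between both effects was then -0.00082 for Abcg1, and the averaged values were 0.17 for Abcg1 and -0.23 for Abcg8. Leaving out 1 mouse at a time gave ranges that crossed 0 in wild type for Abcg5 (-0.24 to 0.049), Abcg8 (-0.055 to 0.86), Npc1 (-0.21 to 0.13), Npc2 (-0.36 to 0.16), Nr1h2 (-0.10 to 0.29) and Scarb1 (-0.24 to 0.071), in knockout for Npc2 (-0.28 to 0.074) and Nr1h3 (-0.11 to 0.065), and for the difference of Abcg1 (-0.13 to 0.998). Without the 2 farthest mice r was -0.031 for Abca1 and Abcg1 and -0.49 for Abca1 and Mylip; r over all 12 mice, over deviations from group means and within slide 2 is not given, because the arrays fall into 2 sets.

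With the replicate number as a block (replicate block), 0 members passed in every comparison. The fitted differences could not move in that fit, because each number occurs in every group with 1 mouse. Over 18 pairs of arrays with the same number, the correlation of deviations from the group means ran from -0.55 to 0.65. The lowest was between vehicle mice 2 of both genotypes and the highest between vehicle mice 3. Both pairs include vehicle arrays that stood apart, so the range cannot show whether the numbers pair the mice. Slide and scan day cannot be told apart. Signal over background does not limit the members, which were above it on 12 of 12 arrays.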
